A study of Drosophila melanogaster with 4 samples.

Results

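The stretches left between neighbouring H3K9me2 clusters inside the assembled heterochromatin of Drosophila melanogaster were examined in wild-type Oregon-R embryos 14 to 16 h old. A gap was taken as every interval of at least 1 bp between the end of one cluster and the start of the next on XHet, 2LHet, 2RHet, 3LHet, 3RHet and YHet, in the authors' cluster list for the replicate set. Sequence ends were left out. This gave 432 gaps, out of 4261 gaps on all sequences of that list. The gaps were therefore chosen by the calls themselves, and their number, length and place are a description of that list, with no test. A gap is a stretch with no called cluster, and the lists hold no read counts, so a stretch without H3K9me2, one with enrichment below the authors' threshold and one where reads could not be placed cannot be told apart.

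The study holds 4 samples, all from Oregon-R-modENCODE embryos of wild-type genotype: 2 ChIP libraries made with a new lot of an H3K9me2 antibody and 2 input libraries, each paired by the labels with 1 ChIP library. All samples are whole embryos, so the cells of every tissue are mixed, and no other strain, stage or antibody was compared. Cluster lists of ChIP replicate 1, ChIP replicate 2 and the replicate set were used, and the inputs enter only through the authors' calls. The labels do not say whether the replicates came from separate embryo collections, so an SD over the 2 replicates may measure technical spread alone. The 3 lists held 3579, 3238 and 4277 clusters on all sequences and 469, 510 and 438 on the Het sequences.

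H3K9me2 is histone H3 dimethylated at lysine 9, a mark laid down by histone methyltransferases such as Su(var)3-9, G9a and the SETDB1 homologue eggless, and recognised, together with the trimethylated form, by Heterochromatin Protein 1. It covers the repeat-rich chromatin around the centromeres and most of the Y chromosome, where transposons and satellite DNA are packed and transcription is largely held down. Fly heterochromatin also carries protein-coding genes, among them light and rolled, that need this environment to be transcribed. The Het sequences of FlyBase release 5 are mapped pieces of this chromatin that were assembled apart from the chromosome arms, and they lack most of the satellite blocks.

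Many short gaps and a few very long ones broke the marked heterochromatin. The 432 gaps held 1.86 Mb, or 20.1% of the sequence between the first and the last cluster of the Het sequences. Their median length was 1412 bp, with quartiles at 529 bp and 3427.75 bp, and their mean was 4.30 kb. Of these gaps, 177 were shorter than 1 kb, which is 41.0% of the gaps but 4.00% of the gap length. In contrast, the 28 gaps of at least 10 kb, a limit chosen after the lengths were seen, were 6.48% of the gaps and held 56.2% of the gap length. The 3 longest alone held 311 kb, or 16.8%, and 20 gaps were enough to make up 50% of the length. The 110 gaps of 2 to 5 kb held 18.9% of the length and the 44 gaps of 5 to 10 kb held 15.2%. At the lower limit of the rule, the shortest gap was 2 bp long, on 2RHet from 849877 to 849878, followed by gaps of 9 bp on 3LHet and 10 bp on 3RHet. No pair of neighbouring Het clusters in this list abutted with a gap of 0 bp, so none fell just outside the rule.

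**Figure D1:**
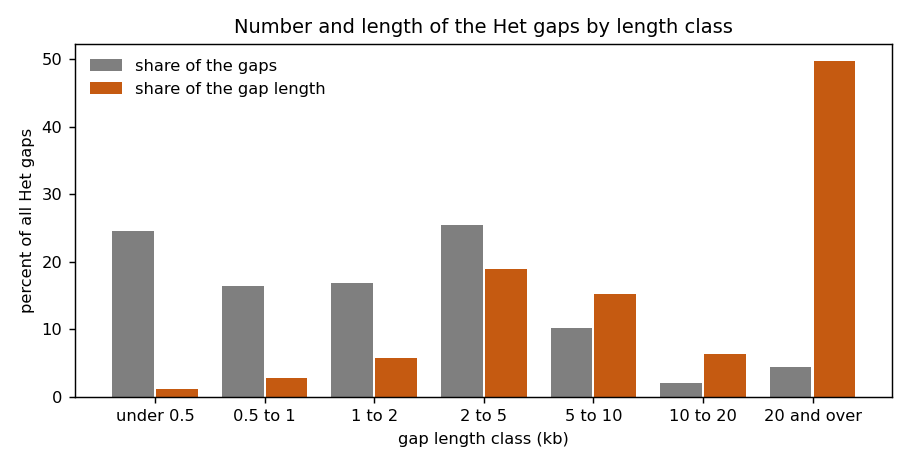
Share of the 432 Het gaps (grey bars) and of their summed length (orange bars), in percent, by gap length class in kb, from the replicate-set list. Gaps under 0.5 kb are 24.5% of the gaps and 1.21% of the length, while gaps of 20 kb and over are 4.40% of the gaps and 49.8% of the length.

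The 6 sequences differed in how their gaps were made up. On 2RHet, the longest Het sequence with 3.29 Mb, 144 gaps held 806 kb, and 11 gaps of at least 10 kb held 70.2% of that length. On 3RHet, 98 gaps held 454 kb, and 9 long gaps held 62.4% of it. On 2LHet, 16 gaps held 106 kb, of which 73.4% lay in 2 long gaps. Thus on these 3 sequences most of the gap length lay in a handful of stretches. The 128 gaps of 3LHet held 325 kb, with 32.5% in 5 long gaps, and gaps took up only 12.7% of the span between its first and last cluster, the lowest share of the 6 sequences. On XHet, gaps took up 44.4% of the span, the highest share, and on YHet 23.4%.

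The Y and X pieces had the highest median gap lengths, and the Y piece had no gap of at least 10 kb in any of the 3 lists. YHet, a small assembled part of the Y chromosome, had 24 gaps with a median of 4008 bp, the highest of the 6 sequences, yet its longest gap spanned only 7.74 kb, from 216343 to 224078. The median on XHet was 3202.5 bp over 22 gaps, and its longest gap, from 58073 to 68842, spanned 10.8 kb in this list. That gap was part of a gap of 52.2 kb in replicate 1, from 16909 to 69129, in which 7 gaps of the replicate set were joined, and of a gap of 21.9 kb in replicate 2, from 46917 to 68846, in which 3 were joined. Accordingly, gaps of at least 10 kb held 12.8% of the gap length of XHet in the replicate set (1 gap), but 69.3% in replicate 1 (3 gaps) and 74.4% in replicate 2 (4 gaps). On the 4 autosomal sequences the medians were 2039.5 bp on 2LHet, 1593 bp on 3RHet, 1279 bp on 3LHet and 1162 bp on 2RHet. In the replicate lists, the median gap of YHet was 3931 bp (replicate 1) and 4910.5 bp (replicate 2), with a mean of 4421 ± 693 bp (SD, n = 2). On XHet the replicate medians were 6566.5 bp over 10 gaps and 3680 bp over 14 gaps, a mean of 5123 ± 2041 bp (SD, n = 2). The means of 3RHet, 2LHet, 2RHet and 3LHet were 2060.5 ± 134, 1661 ± 118, 1638 ± 328 and 1537.5 ± 64.3 bp (SD, n = 2). In both replicates, the medians of XHet and YHet were thus above those of all 4 autosomal sequences, while XHet and YHet differed by less than the replicate spread of XHet, and 2LHet and 3LHet each differed from 2RHet by less than its replicate spread.

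**Figure D2:**
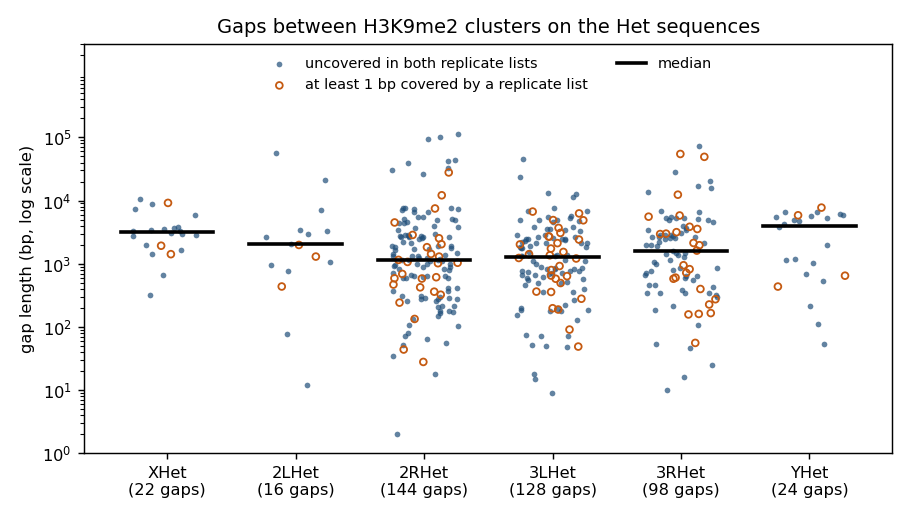
Length in bp (log scale) of each of the 432 gaps, by Het sequence, with the median as a black bar. Filled points are the 341 gaps with no base covered in either replicate list and open circles the 91 gaps with at least 1 bp covered. Gaps over 10 kb are seen on every sequence except YHet, whose median, 4008 bp, is the highest.

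The 3 longest gaps lay on 2RHet. The longest spanned 113 kb from 2648214 to 2761451, between a cluster of 9.21 kb to its left and one of 15.0 kb to its right. Replicate 1 had a gap of 114 kb there, from 2647302 to 2761458, and replicate 2 one of 114 kb from 2647301 to 2761493. All 3 lists thus placed its edges within 1 kb of each other. The second spanned 103 kb from 2457426 to 2560489 and corresponded to gaps of 109 kb in replicate 1, from 2457066 to 2565892, and in replicate 2, from 2456685 to 2565886. The right edge lay 5403 bp further out in replicate 1 and 5397 bp further out in replicate 2, and the cluster of 1.98 kb that ends this gap in the replicate-set list was absent from both replicate lists. The next spanned 94.8 kb from 1159332 to 1254116, and in both replicates it was part of a longer gap, of 112 kb from 1143248 to 1254989 in replicate 1 and of 111 kb from 1143171 to 1254449 in replicate 2.

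On 3RHet the longest gap spanned 72.0 kb from 448958 to 520925. Clusters with nearly equal scores of 2.75 and 2.80 bordered it, and the one to its right, 147 kb long, is the longest cluster of the replicate-set list. The score is the authors' own value for a cluster, on a scale that is not stated, and was used only within a list. Replicate 1 showed this gap as 73.2 kb and replicate 2 as 74.2 kb. A second long gap of 3RHet, 49.2 kb from 317445 to 366624, spanned 49.3 kb in replicate 1 and 49.4 kb in replicate 2. Another, 54.6 kb from 2383062 to 2437653, had low-scoring neighbours, 0.436 on its left and 0.528 on its right, of which the left one was in neither replicate list, and was wider in the replicates, at 61.2 kb (replicate 1) and 65.1 kb (replicate 2). Its left edge lay 6621 bp further out in replicate 1 and 9095 bp further out in replicate 2, so it was less fixed than the edges of the other two.

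The longest gap of 2LHet, 56.4 kb from 62800 to 119232, was also among the most sharply bounded. It spanned 56.5 kb in replicate 1, from 62745 to 119241, and 56.5 kb in replicate 2, from 62766 to 119311, so both edges agreed within 100 bp in all 3 lists. On 3LHet the longest gap, 45.2 kb from 2328469 to 2373620, spanned 47.2 kb in replicate 1 and 47.0 kb in replicate 2. The 10 longest were completed by gaps of 43.6 kb from 1500029 to 1543611 and of 41.8 kb from 2936782 to 2978531, both on 2RHet. These had widths of 47.0 kb and 45.4 kb in replicate 1 and of 47.0 kb and 45.3 kb in replicate 2. In both, the right neighbour in the replicate-set list was a short cluster of low score, 0.407 and 0.599, which neither replicate list had.

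**Figure D3:**
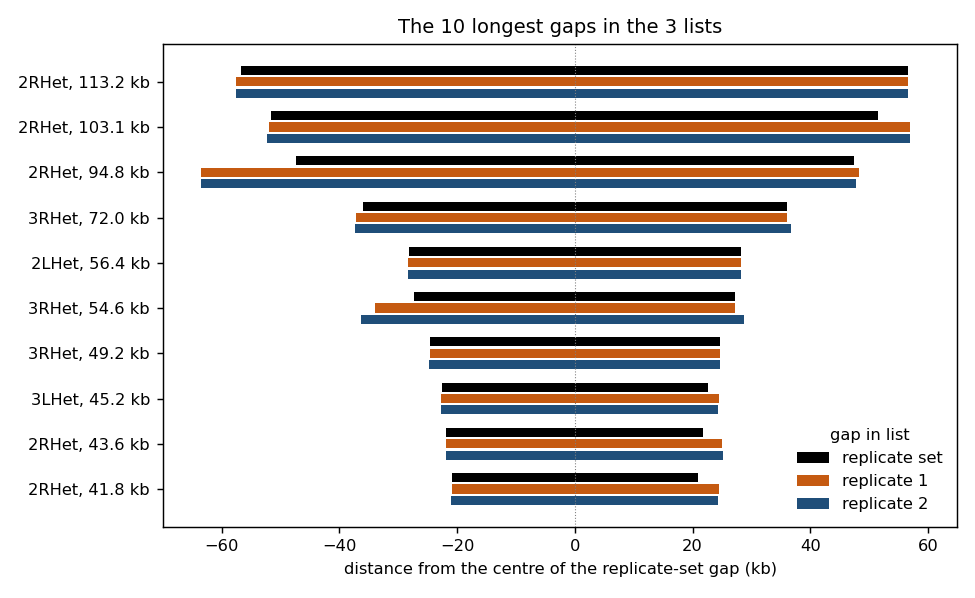
The 10 longest Het gaps, each drawn as a bar from its left to its right edge in kb from the centre of the replicate-set gap (black), with the gap that contains it in replicate 1 (orange) and replicate 2 (blue). Both replicate bars reach past one or both ends of the black bar for most gaps; the 94.8 kb gap of 2RHet extends 16.1 kb (replicate 1) and 16.2 kb (replicate 2) further to the left, and the 56.4 kb gap of 2LHet differs by under 0.1 kb at each edge.

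Both replicate lists left nearly all of the gap length uncovered. Of the gap length, 99.8% was uncovered in replicate 1, and likewise 99.8% in replicate 2, so that the mean was 99.8% ± 0.0240 (SD, n = 2). Replicate 1 covered 2867 bp of the gaps and replicate 2 covered 3497 bp. No cluster of either replicate list lay wholly inside a gap. This result is not independent of the choice of the gaps, since the replicate set carries the same 2 libraries as far as its name says, and how it was made is not given in the sources used here.

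Counted by gap, 341 of 432, or 78.9%, had no base covered in either replicate. Over all 4261 gaps of the list this share was 73.0%, close to that of the Het gaps. Replicate 1 left 378 gaps wholly uncovered, or 87.5% against 80.0% of all gaps, and replicate 2 left 393, or 91.0% against 92.1% of all gaps. Replicate 1 alone covered at least 1 bp of 52 gaps, replicate 2 alone of 37, and both of 2. The overlaps were small. Among these 91 gaps the median of the larger covered length was 22 bp, it was at most 100 bp in 75 of them and at most 10 bp in 26. A replicate list covered more than 50% of only 7 gaps and the whole of 4, and no gap was wholly covered by both. The share of gaps uncovered in both ranged from 74.0% among gaps of 1 to 2 kb to 84.2% among gaps of 20 kb and over, and it was 23 of 28 among gaps of at least 10 kb, where no overlap exceeded 109 bp.

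The 5 gaps with the most bases covered by a replicate list were short or cut only at 1 or both edges. Replicate 2 covered 798 bp of the 6.70 kb gap on 3LHet from 653977 to 660673, and replicate 1 none of it. Replicate 1 closed the gap of 651 bp on 3LHet from 230956 to 231606, which replicate 2 showed as a gap of 1.21 kb. These 2 lists thus disagreed on whether a called cluster covered this place. On 3RHet, 489 bp of the gap of 822 bp from 1737409 to 1738230 were covered by replicate 2. The other 2 lay on 3LHet, from 568010 to 571702 with 458 bp covered by replicate 1, and from 1684214 to 1689089 with 428 bp covered by replicate 2.

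The replicate gaps were wider than those of the replicate set at nearly every edge. Of the 432 gaps, 308 corresponded to exactly 1 gap of replicate 1 that held no other, and 290 to 1 such gap of replicate 2. The edges of these gaps lay further out in replicate 1 at 550 of 616 edges, by a median of 90 bp, and in replicate 2 at 543 of 580 edges, by a median of 150.5 bp. In replicate 1, 51.5% of the edges lay within 100 bp of the replicate-set edge, and in replicate 2, 38.6%. For the long gaps matched in this way, 18 in replicate 1 and 17 in replicate 2, the medians were 71 bp and 96 bp, and the largest extensions were 1855 bp and 2598 bp. Edge positions of these matched long gaps, 18 and 17 of 28, were thus mostly the same to within a small part of the gap length. Long gaps that were joined with others in a replicate were not matched. Among these, the left edge of the 94.8 kb gap on 2RHet lay 16084 bp (replicate 1) and 16161 bp (replicate 2) further out. Because a shallower library or a stricter threshold shortens clusters, and neither depth nor threshold is known here, widths of gaps from different lists are not comparable in level.

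Taken as lists of their own, the replicates had more gaps and more gap length. Replicate 1 had 462 Het gaps with 2256 kb and a median of 1754.5 bp, and replicate 2 had 504 gaps with 2387 kb and a median of 1887 bp. Gaps took up 24.4% and 25.8% of the span between the first and last clusters, a mean of 25.1% ± 1.02 (SD, n = 2). The bases outside clusters in both replicates made up 85.6% of those outside clusters in either, from 80.6% on 3LHet to 89.4% on 2LHet. Of the 2150 kb that lay outside clusters in both replicates, the replicate set covered 301 kb, or 14.0%. This share was highest on 3LHet with 21.2% and XHet with 20.4%, and lowest on 2LHet with 4.85%. Conversely, 103 gaps of replicate 1 and 154 of replicate 2 touched no gap of the replicate set. They were short, with medians of 347 bp and 363 bp, and summed to 53.8 kb and 92.0 kb.

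Some gaps were joined in the replicates because the clusters between them were called only in the replicate set. Of its 438 Het clusters, 61 were touched by neither replicate list, 18 of them on 3RHet, 17 on 2RHet, 15 on 3LHet, 9 on XHet, 1 on 2LHet and 1 on YHet. Their median length was 1474 bp and their median score 1.49, against 10799 bp and 2.17 for the 377 other clusters. The shortest Het cluster of the replicate lists was 1306 bp long in replicate 1 and 1345 bp in replicate 2. In 2 places, both replicates joined at least 4 gaps. On 2RHet both replicates ran 4 gaps together into the long gap of 112 kb in replicate 1 and 111 kb in replicate 2 described above, across 3 clusters of at most 1895 bp. On 3RHet, 6 gaps with a summed length of 5.84 kb became 1 gap of 16.1 kb in replicate 1, from 1069092 to 1085202, and of 16.1 kb in replicate 2, from 1069122 to 1085202. The 5 clusters between these gaps were at most 2158 bp long but scored 1.70 to 3.99, against the median of 2.17 for the Het clusters that a replicate touched.

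Gaps were unevenly placed along the sequences. When each sequence was cut into 3 equal parts, gaps took up 60.3%, 55.9% and 7.39% of XHet from left to right, and 51.4%, 24.1% and 10.8% of 2LHet. On YHet the shares were 12.4%, 29.0% and 28.8%, and on 2RHet 16.5%, 27.4% and 29.6%. On 3RHet the middle part had fewer, with 18.2%, 9.13% and 26.7%, whereas on 3LHet the parts were alike, with 13.0%, 12.0% and 13.2%. XHet also began with 14880 bp and 2RHet ended with 10471 bp outside any cluster, which are sequence ends and were not counted.

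**Figure D4:**
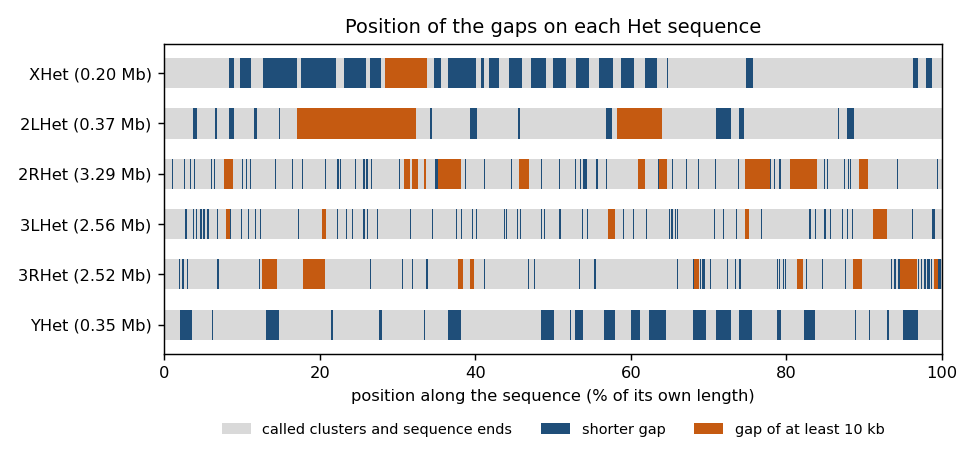
Position of the gaps along each Het sequence, in percent of the sequence's own length, from the replicate-set list. Gaps of at least 10 kb are orange, shorter gaps blue, and clusters and sequence ends grey. Most of the orange blocks lie on 2RHet and 3RHet, YHet has none, and the gaps of XHet crowd its left part.

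In windows of 100 kb, the gap share had a median of 12.1% over the 90 full windows. It was under 5% in 19 windows and at least 50% in 11. The window of 3RHet from 2400001 to 2500000 had the highest gap share, 73.9%, and 80.5% of it lay outside clusters in replicate 1 and 84.0% in replicate 2. The window with the most gap length on 2RHet ran from 2500001 to 2600000, with 70.0% in gaps, and 72.4% and 74.5% open in replicates 1 and 2. On XHet it was the window from 1 to 100000, with 61.8% in gaps and 91.7% and 90.0% open in replicates 1 and 2, which include the sequence end. The highest windows of 3LHet, from 2300001 to 2400000, of 2LHet, from 1 to 100000, and of YHet, from 200001 to 300000, had 47.6%, 44.0% and 38.2% in gaps. At the other extreme, the window of 3RHet from 1500001 to 1600000 held no gap and was covered from end to end in all 3 lists.

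Long gaps lay in groups on 2RHet. The 2 longest were separated by 87.7 kb that held 8 clusters, and together with the 7 shorter gaps between them, which summed to 19.8 kb, they left 236 kb of the 304 kb from 2457426 to 2761451 outside clusters. Further left, gaps of 26.3 kb, 27.9 kb and 12.1 kb followed each other from 1012456 to 1108648 with 1 cluster between neighbours, of 7.46 kb and 22.5 kb. The 94.8 kb gap began 50.7 kb after them. On 3RHet, the gaps of 49.2 kb and 72.0 kb were 82.3 kb apart, with 4 clusters between them. The long gaps of 3LHet were the most scattered, with 302 to 926 kb between neighbours. These groups were picked after their positions were seen.

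On XHet a row of gaps of nearly equal length recurred at nearly equal steps. From 85124 to 123215, 7 successive gaps began 5.28 to 6.10 kb apart, with a median step of 5.85 kb. They were 2.77 to 3.89 kb long, and the 6 clusters between them were 2.00 to 2.69 kb long. No base of these 7 gaps was covered in either replicate. The clusters between them were low in score, 0.894 to 1.28, and replicate 1 touched 5 of the 6 while replicate 2 touched 3 of the 6. A scan added after this row was seen looked for at least 5 successive gaps with every step within 10% of the row's median step and a median step of at least 1 kb. Over all sequences of the replicate-set list it listed this row and a row of 5 gaps on 3LHet, from 2208178 to 2246474. The 3LHet row had a median step of 9.09 kb and gap lengths from 0.0740 to 3.08 kb. Neither row met the same criterion in the replicate lists. There the scan listed 2 other rows of 5 gaps on X in replicate 1 and 1 other row of 5 gaps on 3LHet in replicate 2. It did not list an overlapping row on XHet that also meets the criterion. That row starts at 90406 and runs on through the gaps that begin at 126207 and 131846. The rows listed are thus not complete, and the ends of the XHet row are not fixed. No release 5 genome was used here, so the sequence under these gaps was not read.

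Clusters next to long gaps were much like the other Het clusters. In the replicate-set list, the 53 clusters next to gaps of at least 10 kb had a median score of 2.31 and a median length of 9.28 kb, against 2.11 and 8.37 kb for the 385 others. In replicate 1 the median scores were 2.11 for 54 clusters next to these gaps and 2.10 for the 415 others, and in replicate 2 they were 2.40 for 54 clusters and 2.32 for the 456 others. Single long gaps departed from this. The 33.0 kb gap on 2RHet from 2092466 to 2125436 had a left neighbour of score 3.42, the highest next to any long gap, whereas the 12.4 kb gap on 3RHet from 2491348 to 2503738 lay between clusters with scores of 0.598 and 0.278. Neither replicate list covered any base of the clusters with the scores of 3.42 and 0.278, which were 2.03 kb and 1.67 kb long.

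The Het gaps were compared with those of the most similar sequences, without a test. In the replicate-set list, the 432 Het gaps summed to 1856 kb, close to the 1748 kb of the 659 gaps on sequence U. Sequence U joins scaffolds of unassigned position. In replicates 1 and 2 the Het totals were 2256 kb and 2387 kb, below the 2446 kb and 2753 kb on U. The third comparison was the proximal 1 Mb of 2L, 2R and 3L, the centromere-side end of each arm sequence. Gaps of at least 10 kb held 56.2% of the gap length on the Het sequences and 57.3% on chromosome 4, which were close. They held 15.0% on U and 20.7% in the proximal 1 Mb of 2L, 2R and 3L. In the replicate-set list the Het gaps were less dense, with 46.7 per Mb of span against 65.6 per Mb on U. The autosomal sequences had 38.9 (3RHet) to 50.1 (3LHet) per Mb, but XHet had 116 and YHet 69.3, above U. In replicates 1 and 2, XHet had 52.9 and 74.2 and YHet 72.5 and 69.6, below the 90.1 and 99.5 on U. The median gap of the replicate-set list was 1412 bp on the Het sequences, 1221 bp on U and 1508.5 bp on chromosome 4. It was 1127 bp in the proximal 1 Mb of 2L, 2R and 3L. With gaps of at least 10 kb set aside, the remaining gaps took up 8.78% of the span on the Het sequences, 14.8% on U, 17.6% on chromosome 4 and 10.7% in the proximal 1 Mb of 2L, 2R and 3L. The Het value was thus the lowest of these 4, but it was carried by the 4 autosomal sequences, with 6.78% on 3RHet to 8.58% on 3LHet, while XHet had 38.7% and YHet 23.4%. The proximal parts differed too, with 9.06% on 3L, 9.21% on 2R and 14.0% on 2L, so 3L and 2R were close to the Het value. In replicates 1 and 2 the Het value was also the lowest, with 10.6% and 11.6%. The values there were 13.5% and 16.0% in the proximal parts, 20.6% and 23.1% on U and 19.0% and 18.3% on chromosome 4. On XHet alone the values were 18.4% and 15.1% in replicates 1 and 2, below its 38.7% in the replicate set. XHet thus lay below U and chromosome 4 in both replicates. On YHet the replicate values were 27.6% and 28.6%. All these shares are of the whole span, long gaps included. These sequences differ in how they were assembled, and scaffold joins within U or the Het sequences were not assessed here.

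**Figure D5:**
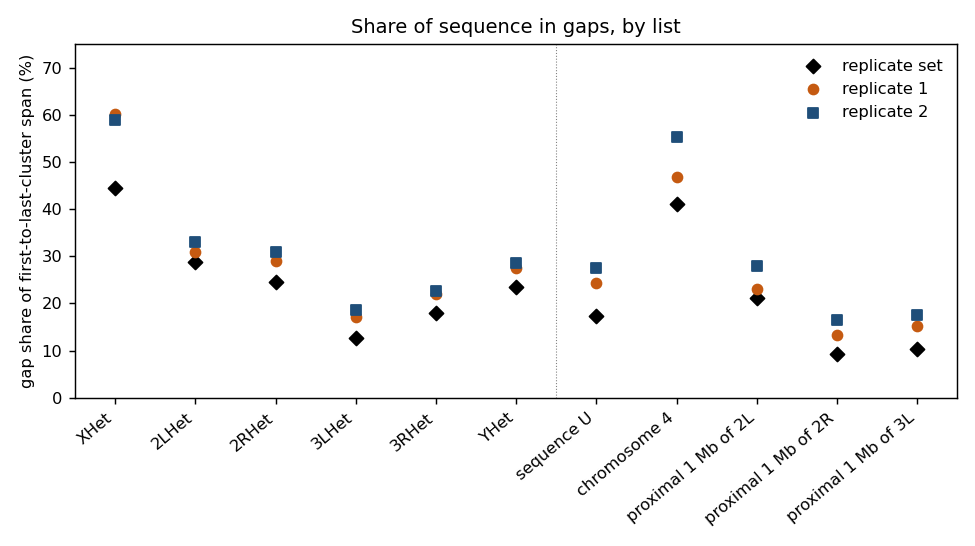
Gap length as a percentage of the span from the first to the last cluster, for each Het sequence (left of the dotted line) and for sequence U, chromosome 4 and the proximal 1 Mb of 2L, 2R and 3L (right of it), in the replicate-set list (diamonds), replicate 1 (circles) and replicate 2 (squares). XHet has the highest share among the Het sequences, 44.4% in the replicate set, and 3LHet the lowest, 12.7%, and both replicate values lie above the replicate-set value in every region.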

How the data were processed

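The authors deposited 3 lists of regions of significant enrichment in GFF3 form, giving start, end and score of each cluster. Positions are on FlyBase release 5, per the file headers. The submitters' processing notes name Bowtie 0.12.7. Caller, threshold, read filtering, how the 2 replicates were merged and the scale of the deposited score were not given in the sources used here. Read depth is unknown, so no interval or limit based on counts is given, and a shallower library would widen gaps.

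Clusters that ran past a sequence's stated end were trimmed there. Gaps, covered lengths and medians were computed with Python 3.11.15, numpy 2.4.6 and pandas 2.3.3, and the gap and coverage functions were tested on simulated data against bedtools 2.31.1. A span runs from the first to the last cluster of a sequence. The gaps, the comparisons and the rule for named gaps (the 10 longest, the longest of each sequence, the 5 longest uncovered in both replicates and the 5 with most covered bases) were chosen with earlier results of these data known. Other gaps named in the text were picked after their values were seen. With 2 ChIP libraries of 1 condition, no test was made. Alternatives were other length limits, lists, cluster sets and sequences. Genes were not analysed here, since the gene table used is of release 6.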

Additional observations from a re-analysis of the deposited data

How the results depend on the processing

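The lists give no depth, so what depth limits could not be assessed, and assembly gaps and unplaceable reads were not assessed either. The cause of changes was not tested beyond the construction of each setting. With gaps of at least 1 kb only, 255 gaps remained with a median of 2895 bp, of which 204 were uncovered in both replicates, and 99.9% of their length was uncovered on average. With gaps of at least 2 kb only, these values were 182 gaps, 4099.5 bp, 150 gaps and 99.9%, with a total of 1676 kb or 18.1% of the span. Bounded by the upper 50% of the replicate-set list by score, the gaps had a median of 1518 bp and were uncovered over 98.4% on average. That cut was made over all sequences and kept 402 of the 438 Het clusters, so it changed the Het clusters little. The totals, medians and span shares were 2256 kb, 1754.5 bp and 24.4% with the replicate 1 list, 2387 kb, 1887 bp and 25.8% with the replicate 2 list, and 2146 kb, 1963.5 bp and 23.2% with the union of both. Without the clusters touched by neither replicate, a setting chosen after seeing the data, they were 1961 kb, 1930 bp and 21.2%. Leaving out each sequence in turn gave 288 to 416 gaps, 1050 to 1775 kb, medians of 1329.5 to 1647 bp, span shares of 17.6 to 22.9%, and 223 to 328 gaps uncovered in both; without 2RHet the total fell by more than any other exclusion, to 1050 kb, and the count uncovered in both was 223. The mean uncovered share lay between 99.8% and 99.9% in these, and was 99.8% in each replicate alone. With sequence ends counted as gaps all 6 results stayed within 1.5 times or 1 SD between replicates, with 440 gaps and 1883 kb. Allowing 10% or 50% of a gap to be covered gave 410 and 425 gaps uncovered in both replicates. No paired analysis was possible because the results describe cluster lists and compare no groups of samples.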

Other observations

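Gap lengths between 2 and 6 kb were not spread evenly. In the replicate-set list, 37 Het gaps were 2501 to 3000 bp long, against 24 of 2001 to 2500 bp and 15 of 3001 to 3500 bp. The same class was the fullest of the 3 in each replicate list, with 40 gaps against 21 and 23 in replicate 1, and 43 against 29 and 24 in replicate 2. In steps of 250 bp, the replicate-set list also had 12 Het gaps of 4751 to 5000 bp, against 4 in the class below and 5 in the class above, but the replicate lists did not show this, with 5 against 6 and 5 in replicate 1 and 1 against 7 and 5 in replicate 2. On sequence U in the replicate-set list, the 250 bp classes from 2501 to 3000 bp held 11 gaps each. The class from 2251 to 2500 bp held 9 and that from 3001 to 3250 bp held 11. In replicate 1 the same U classes held 26 and 16 gaps, against 18 below and 19 above. In replicate 2 they held 15 and 30, against 22 and 26. In these 250 bp classes the Het gaps numbered 21 and 16 in the replicate-set list, against 8 below and 4 above. In replicate 1 they numbered 18 and 22, against 7 and 13, and in replicate 2 they numbered 20 and 23, against 13 and 13. Both Het classes were thus fuller than both neighbours in each list, which held in no list on U. These classes were looked at after the lengths were seen, and the 3 lists share their libraries.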
